A study of Homo sapiens with 39 samples.

Results

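WM115 is an established human melanoma cell line, and clone 1.2 is a line grown from it in which a regulatory region near SOX10, named R1 in the labels, carries a deletion (genotype R1_del). The series comprises 39 RNA-seq libraries of the melanoma lines WM115 and A375, of which 21 are from WM115. Clone 1.2 was compared through its 3 libraries, all those titled W_1.2, with the 4 WM115 libraries of the unedited line (titles W_WT, genotype WT). No treatment, dose or time was labelled for any of these libraries, and the labels give the tissue as skin and the cells as melanoma cells. The other WM115 clones entered only as a background of 14 libraries: clone 1.1 (5 libraries, R1_del), clone 1.3 (3 libraries), clone 4.1 (3 libraries, R4_del) and clone 4.2 (3 libraries, R4_del). Clone 1.3 has a title number like those of the R1 clones but the genotype R4_del. Because clone 1.2 is 1 clone, its differences from WT can belong to the deletion or to the cell from which it was grown, and these cannot be told apart here. The labels number the libraries as replicates without saying that they came from separate cultures, so the p-values measure only the spread between these libraries, which may be technical.

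SOX10 is a transcription factor of the neural crest, the embryonic cell population from which melanocytes and Schwann cells arise. In melanocytes it acts with MITF on the genes of pigment synthesis, and it is also needed for the Schwann cell programme. Melanoma cells that lack SOX10 are known from other work to lose pigment genes and to express growth factor receptors, secreted factors and matrix genes, a state called undifferentiated or mesenchymal-like.

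All levels are gene TPM, a scale that corrects for transcript length and library total. Differences are on the log2(TPM + 1) scale, which understates the change of genes with low levels. A gene was called when limma, fitted over 16997 genes in the 21 WM115 libraries, gave a Benjamini-Hochberg adjusted p under 0.05 and a difference of at least 1. No read counts were used, so the depth behind each value is unknown. A gene listed at 0 could not be told from one below detection.

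Libraries that stood apart are described before the results. Library 3 of clone 1.2 held 9.56 TPM of SOX10, where libraries 1 and 2 held 279 and 272 TPM. Across the tested genes, libraries 1 and 2 correlated with each other at a Pearson r of 0.971 and with library 3 at 0.942 and 0.944. Library 3 correlated with the WT libraries at 0.884 to 0.891, below the 0.966 to 0.986 seen between WT libraries. The second library of clone 1.3 went against its label. It correlated with the libraries of clone 1.2 at 0.942 to 0.981, and with the other 2 libraries of clone 1.3 at 0.939 and 0.968. The first and the third library of clone 1.3 correlated with each other at 0.963. The second library of clone 1.3 also held genes that set clone 1.2 apart. BEX1 was 97.4 TPM in it, while the first and the third library of clone 1.3 had 0.387 and 0.074 TPM. This second library entered the spread of the fit and the mean of the other clones, so counts are given with and without it.

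The share of TPM from mitochondrial genes was 8.75 to 11.8% in clone 1.2 and 13.7 to 15.6% in WT. Ribosomal protein genes took 16.4 to 17.3% in clone 1.2 and 11.1 to 12.8% in WT. Between 14878 and 15525 genes reached 1 TPM in each of the 7 libraries. The part of these shares in the differences below was not tested.

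Library 3 carried the genes that mark its clone. A gene was taken as a mark of clone 1.2 if libraries 1 and 2 both had at least 2 TPM and every other WM115 library had under 0.5 TPM. With all 18 other libraries no gene met this rule, because the second library of clone 1.3 was among them. Over the 17 other libraries that remain without it, a choice made after seeing the data, 22 genes were marks. All 22 were at 2 TPM or more in library 3, and all 22 were also at 2 TPM or more in the second library of clone 1.3. MME, a cell-surface peptidase, was one of them: it had 16.2, 21.9 and 35.7 TPM in clone 1.2, 22.4 TPM in that library of clone 1.3 and at most 0.392 TPM in the 17 others. Clone 4.1 had 4 marks of its own by the same rule and clone 1.1 had 1, and library 3 held each of them under 0.5 TPM. Genes lacking in a group were taken by the reverse rule, with under 0.5 TPM in all its libraries and at least 2 TPM in all others, library 3 set aside. Library 3 had at least 2 TPM of all 6 genes that clone 4.1 lacked and of 7 of the 8 that clone 1.1 lacked, the exception being SERPINA5, listed at 0. SOX8, the 1 gene that WT lacked by this rule, was also listed at 0 in library 3, as described with the SOX family.

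**Figure D1:**
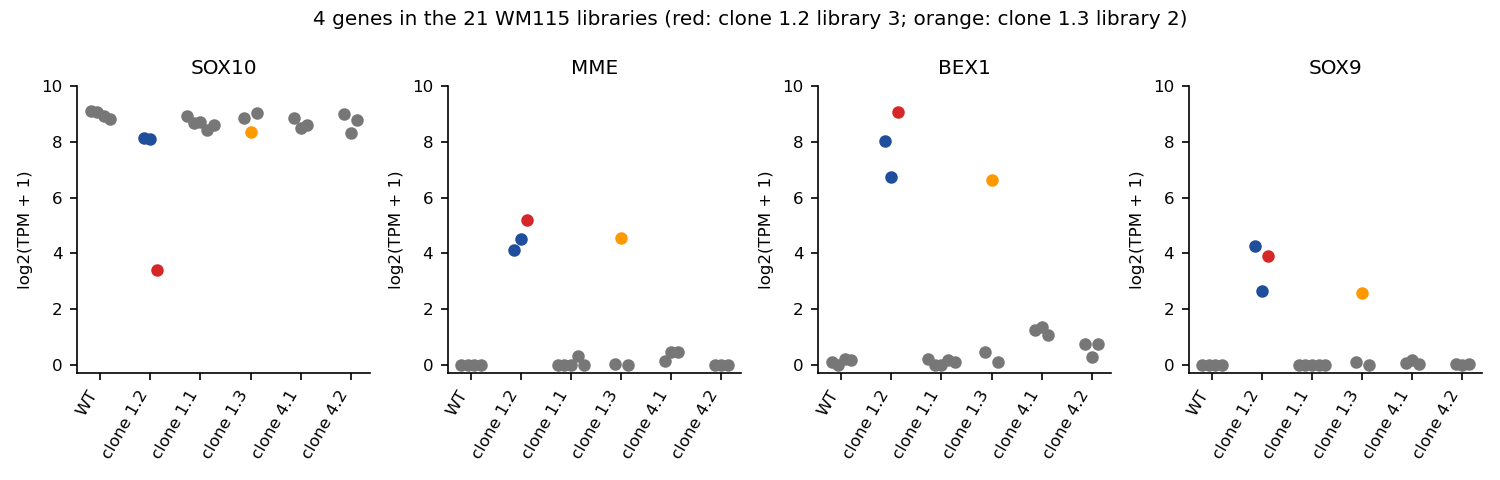
Levels of SOX10, MME, BEX1 and SOX9, as log2(TPM + 1), in each of the 21 WM115 libraries by group; each point is 1 library. Blue points are libraries 1 and 2 of clone 1.2; library 3 (red) is lowest in SOX10 but high in MME, BEX1 and SOX9, and the second library of clone 1.3 (orange) has levels of these 3 genes like those of clone 1.2.

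SOX10 fell in clone 1.2, and most of the fall came from library 3. SOX10 (ENSG00000100146; GRCh38 chromosome 22, 37970686 to 37987422, minus strand) had 553, 539.9, 485 and 449 TPM in the WT libraries and 279, 272 and 9.56 TPM in libraries 1, 2 and 3 of the clone. None of the clone's libraries reached the WT range, and library 3 lay far below the other 20 WM115 libraries, of which the lowest had 272 TPM. The group difference was -2.44 ± 0.70 (SE, log2 scale; limma adjusted p = 0.0192). Without library 3 it was -0.87 ± 0.19 (adjusted p = 0.0119), which stays under the minimum difference for a call. When the spread was taken from the clone 1.2 and WT libraries alone, the adjusted p was 0.164. In bulk RNA, fewer cells with SOX10 and less SOX10 RNA per cell cannot be told apart. The main SOX10 transcript, SOX10-202, made up 76.9 to 82.5% of the gene's TPM in each of the 7 libraries, library 3 included. Against the other 4 clones the difference was -2.15 ± 0.58 (limma adjusted p = 0.0116).

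Over all genes, clone 1.2 differed from WT in 1293 of 16997 tested genes (7.61%), with 764 higher (4.49%) and 529 lower (3.11%). Library 3 was farther from WT than the mean of libraries 1 and 2 in 1169 of the 1293. Library 3 entered these calls, which favours such genes, and the share over all tested genes was not computed. Without library 3 the count was 531 (3.12%), with 419 higher (2.47%) and 112 lower (0.659%), and 513 of them were among the 1293. Among the 780 genes called only with library 3, libraries 1 and 2 were both outside the WT range on the same side in 591. Libraries 1 and 2 also entered the calls that picked these 780, and the share over all tested genes was not computed. Leaving out the second library of clone 1.3 gave 1320 calls, and leaving out both that library and library 3 gave 688. All 3 clone 1.2 libraries lay outside the range of the 4 WT libraries in 4818 tested genes (28.3%), 15.2% higher and 13.2% lower, and 1097 of these genes were also called (6.45%). Over all tested genes the median difference was -0.02.

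**Figure D2:**
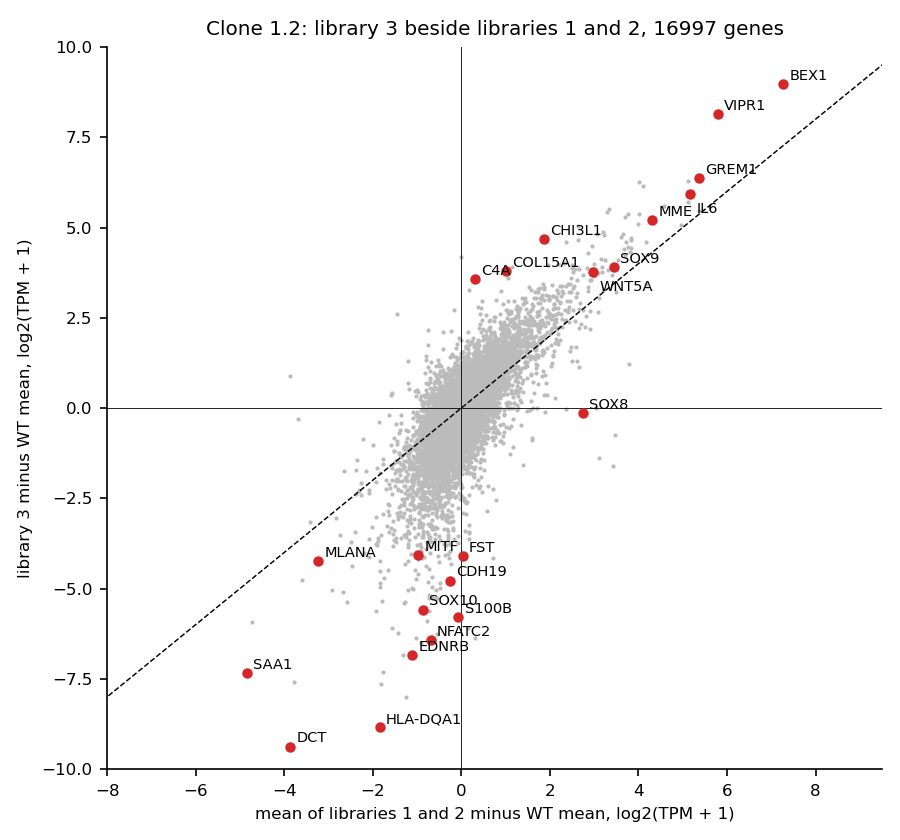
Each grey point is 1 of 16997 genes; the x axis gives the mean of libraries 1 and 2 minus the WT mean and the y axis library 3 minus the WT mean, both on the log2(TPM + 1) scale, with the dashed line at equality. SOX10, S100B, EDNRB and HLA-DQA1 lie far below the line, while BEX1, VIPR1 and IL6 are high on both axes and SOX8 is higher in libraries 1 and 2 than in library 3.

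Of the pigment genes tested, 11 fell in clone 1.2 and 11 did not pass the test. The 22 tested genes come from a 25-gene melanocytic list, none of them was called higher (background 3.11% lower), and the median difference was -1.41. Without library 3, 3 of these genes (DCT, MLANA and QPCT) were called lower, beside 0.659% of all tested genes. The summed level of the list was 1395 to 5302 TPM in WT and 640, 1680 and 898 TPM in libraries 1, 2 and 3. WT library 3 had the lowest sum of the 4 WT libraries. In the spread of the clone 1.2 and WT libraries alone 2 of the genes were called lower, beside 160 of all 16997 tested genes.

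TYR, TYRP1 and DCT encode the enzymes of melanin synthesis. Their upstream regions are printed because the 3 enzymes serve 1 pathway and yet only DCT was called. The 250 bases before each start come from RefSeq (GRCh38.p14), 5′ to 3′ on the gene's strand, with matches to the E-box words CATGTG, its reverse complement CACATG, and CACGTG in capitals.
TYR, chr11:89177625-89177874, plus strand: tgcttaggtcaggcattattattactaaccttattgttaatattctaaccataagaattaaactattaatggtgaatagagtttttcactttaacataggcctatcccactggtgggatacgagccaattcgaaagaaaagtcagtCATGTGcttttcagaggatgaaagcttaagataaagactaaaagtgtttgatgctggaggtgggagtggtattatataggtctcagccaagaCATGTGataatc
TYRP1, chr9:12693135-12693384, plus strand: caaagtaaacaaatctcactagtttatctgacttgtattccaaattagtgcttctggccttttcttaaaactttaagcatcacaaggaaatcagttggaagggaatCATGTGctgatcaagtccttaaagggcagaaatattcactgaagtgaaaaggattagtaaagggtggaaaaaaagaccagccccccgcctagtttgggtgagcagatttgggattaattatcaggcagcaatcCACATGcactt
DCT, chr13:94479683-94479932, minus strand: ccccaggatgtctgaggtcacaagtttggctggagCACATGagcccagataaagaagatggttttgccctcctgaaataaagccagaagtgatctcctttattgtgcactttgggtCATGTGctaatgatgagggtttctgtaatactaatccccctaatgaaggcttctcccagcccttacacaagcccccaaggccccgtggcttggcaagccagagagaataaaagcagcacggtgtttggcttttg
Each of the 3 windows held 2 matches. In TYR the matches began 104 and 12 bases before the start, in TYRP1 144 and 11 bases, and in DCT 215 and 134 bases. Such words occurred in 15.2% of the 35116 promoter windows of the same length, and in 5 of 18 windows of the 9 melanocytic genes called lower that had an entry. A match is a description of letters and does not show that a factor binds there.

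DCT, dopachrome tautomerase, had 785, 681, 215 and 1685 TPM in WT. In clone 1.2 it had 12.98 and 148.5 TPM in libraries 1 and 2 and was listed at 0 in library 3. No clone library reached the lowest WT library, and the difference was -5.70 ± 1.21 (limma adjusted p = 0.00425), or -3.86 without library 3 (adjusted p = 0.0395). In the spread of the 2 groups alone the adjusted p was 0.057. The 20 other WM115 libraries ran from 2.37 to 1685 TPM, so DCT varied widely among WM115 lines, and against the other 4 clones it did not pass (log2 difference -1.05, adjusted p = 0.477). TYR, tyrosinase, had 6.48, 4.11, 1.17 and 23.6 TPM in WT and 5.48, 0.820 and 0 TPM in the clone, and it did not pass the test. TYRP1 had 57.6, 36.4, 10.6 and 127.5 TPM in WT and 1.097, 59.2 and 2.13 TPM in the clone. Library 2 was inside the WT range for TYRP1, and the gene did not pass either (adjusted p = 0.0578).

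MITF, the master regulator of the melanocyte lineage, had 149, 139, 60.5 and 164.5 TPM in WT and 41.4, 88.4 and 6.16 TPM in the clone. Libraries 1 and 3 were below the WT range and library 2 was inside it. The difference on the log2(TPM + 1) scale was -2.01 ± 0.61 (limma adjusted p = 0.0253), and it did not pass without library 3 (-0.97, adjusted p = 0.237). Its transcripts MITF-201 and MITF-205, which together held most of the WT level, were listed at 0 in library 3, where MITF-216, MITF-212 and MITF-203 made up 38.9, 25.6 and 23.5% of the gene. The depth behind these shares is unknown.

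MLANA, the melanosome antigen Melan-A, fell from 3.67 to 54.4 TPM in WT to 1.51, 0.603 and 0 TPM. It was below WT in all 3 libraries (limma difference -3.57, adjusted p = 0.00577). IRF4, a transcription factor of the pigment programme, had 32.9 to 56.3 TPM in WT, 16.0 and 21.8 TPM in libraries 1 and 2, and 0.36 TPM in library 3. CAPN3, ABCB5, RAB38, GPNMB, TRPM1, QPCT and ST3GAL6 made up the rest of the calls. Among the genes that did not pass, PMEL, a structural protein of the melanosome, was 6.75, 47.1 and 6.67 TPM beside 8.15 to 41.1 TPM in WT, a log2 difference of -0.28. The differences of TSPAN10 and GPR143 were 0.05 and 0.46. APOE was 223, 552.5 and 619 TPM beside 430.1 to 1238 TPM. RAB27A, which carries melanosomes to the cell edge, was 28.5 TPM in library 3, inside the WT range of 17.7 to 38.0 TPM.

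Among 27 tested Schwann cell and neural crest genes of 30, 9 were called lower and 3 higher, with a median of -1.20. The shares over all tested genes were 3.11% lower and 4.49% higher. Without library 3, 1 was lower (EDNRB) and 3 were higher, beside 0.659% and 2.47% of all tested genes. Library 3 was lower than the mean of libraries 1 and 2 by a log2 of at least 1 in 18 of the 27, beside 7.34% of all tested genes, and 17 of the 27 were below all other 20 WM115 libraries (18.7% of all tested genes). SOX10, the gene by which library 3 was set apart, is 1 of the genes in each of these counts of lower genes, apart from the count without library 3. As library 3 is 1 library, its counts have no test.

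EDNRB, the endothelin receptor of melanoblasts, had 206, 176, 110.4 and 239 TPM in WT, 80.2 and 82.2 TPM in libraries 1 and 2 and 0.548 TPM in library 3. All 3 were below WT, with a difference of -3.01 ± 0.86 (limma adjusted p = 0.0194) and -1.10 without library 3 (adjusted p = 0.0324). RXRG, a retinoid receptor, had 64.5 to 107 TPM in WT and 37.1, 56.0 and 0.138 TPM in the clone (limma difference -2.80, adjusted p = 0.0207). S100A1, a calcium-binding protein, had 419 to 501 TPM in WT and 349.9, 303.5 and 13.4 TPM in the clone. S100B, the calcium-binding protein used as a melanoma marker, was 295 and 319 TPM in libraries 1 and 2, inside the WT range of 259 to 405 TPM, and 4.87 TPM in library 3. Its group difference did not pass the test (adjusted p = 0.111). CDH19, a cadherin of Schwann cell precursors, showed the same order: 24.1 and 22.1 TPM, inside the WT range, and 0.040 TPM in library 3.

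MBP, a myelin gene, was called lower, with 43.0 to 129 TPM in WT and 21.4, 57.9 and 6.75 TPM in the clone. ERBB3, the neuregulin receptor of the crest lineage, was called lower with 116, 106 and 17.04 TPM beside 101.5 to 178 TPM in WT, libraries 1 and 2 being inside the WT range. Both NGFR, the low-affinity nerve growth factor receptor, and MIA, a secreted melanoma protein, had their lowest level of the 7 libraries in library 3, at 3.67 and 44.5 TPM, but neither passed the test. NGFR ranged from 2.31 to 860.5 TPM in the other 20 libraries. The crest transcription factors TFAP2A and PAX3 were 81.1 and 16.2 TPM in library 3, both inside their WT ranges.

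The SOX family split. SOX9, a relative of SOX10 in the same SOXE subgroup, was listed at 0 in all 4 WT libraries and had 18.1, 5.27 and 14.1 TPM in clone 1.2 (limma adjusted p = 6.66e-05, and 0.000846 without library 3). It was under 0.5 TPM in 13 of the 14 libraries of other clones, the exception being the second library of clone 1.3 at 4.92 TPM. SOX8, the third SOXE member, was 5.61 and 7.07 TPM in libraries 1 and 2, listed at 0 in library 3, and at most 0.15 TPM in WT. It was called higher with and without library 3 (adjusted p = 0.0130 and 7.49e-06), though library 3 was below the WT range. The other clones had 3.203 to 16.7 TPM of SOX8. The SOXD member SOX5 and the SOXB1 member SOX2 were 1.32 TPM and 0 in library 3, beside WT ranges of 19.4 to 40.1 TPM and 4.47 to 9.60 TPM. SOX2 was called lower and SOX5 was not. SOX6, also of the SOXD subgroup, was called lower at 2.88, 2.48 and 0.969 TPM beside 4.65 to 6.18 TPM.

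**Figure D3:**
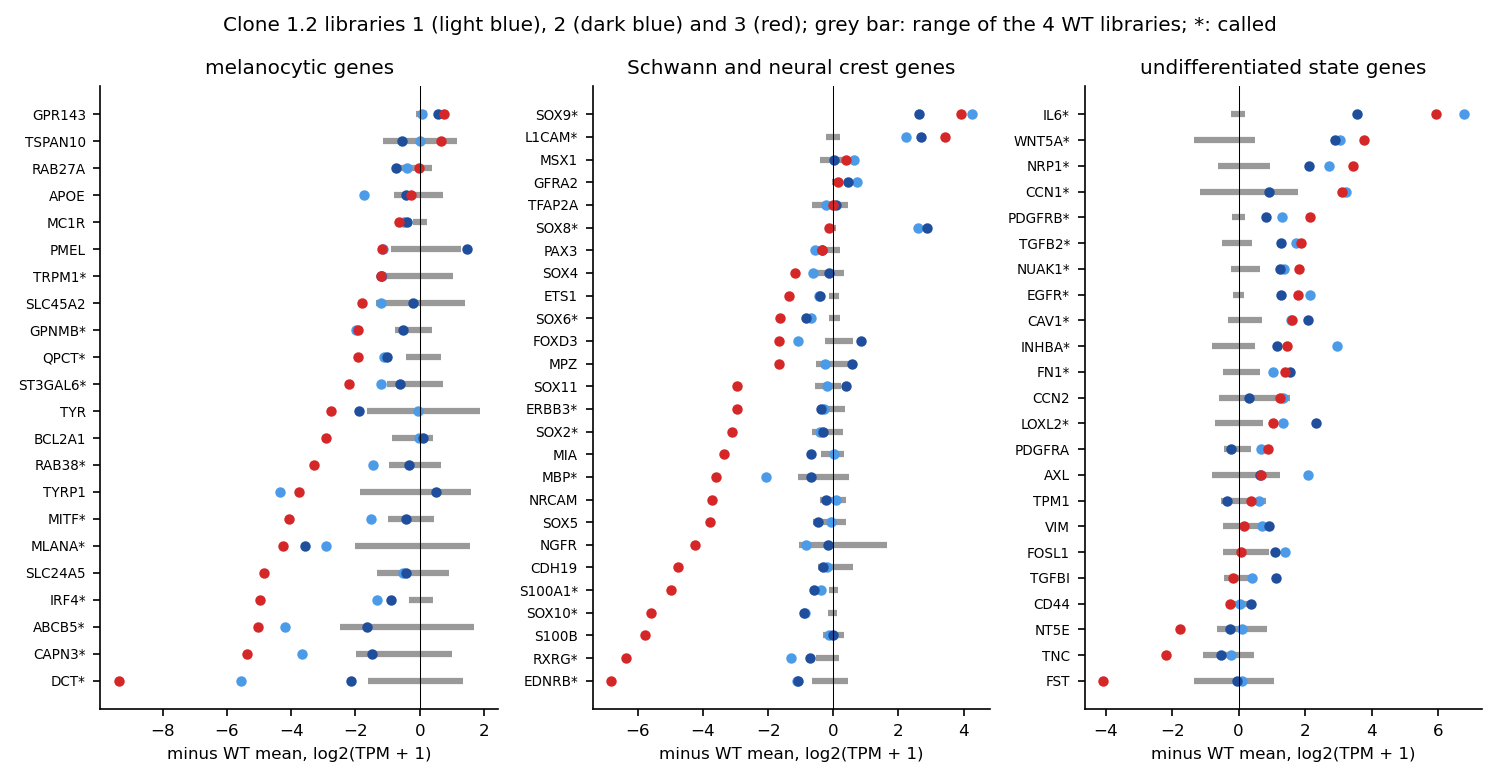
Rows are tested genes of the melanocytic, Schwann and neural crest, and undifferentiated state lists, apart from those not reported by name; the x axis is the level minus the WT mean on the log2(TPM + 1) scale, points are libraries 1 to 3 of clone 1.2 and grey bars span the 4 WT libraries. In the first pair of lists library 3 (red) lies to the left of libraries 1 and 2 for most genes, whereas in the undifferentiated list all 3 libraries lie to the right of the WT range for IL6, WNT5A, NRP1 and CAV1; an asterisk marks a called gene.

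Among 24 tested genes of the 25-gene undifferentiated melanoma state list, 13 were called higher and 0 lower (background 4.49% higher), with a median of 1.37. For all called ones but CCN1 every clone library was above every WT library. The same held for 718 of all 764 genes called higher and for 15.2% of all tested genes. Without library 3, 9 of the 24 were called higher, beside 2.47% of all tested genes. Library 3 moved both ways from libraries 1 and 2 here, with a median difference of -0.08. By a log2 of at least 1, it was higher in 3 of the 24 and lower in 5. The shares over all tested genes were 2.72% and 7.34%.

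IL6, the cytokine interleukin 6, had 0.228 to 0.640 TPM in WT and 158, 16.0 and 87.2 TPM in the clone, with every clone library above every WT library. The difference was 5.42 ± 0.73 (limma adjusted p = 0.00015; 0.00188 without library 3). WNT5A, a ligand of the noncanonical Wnt pathway, rose from 18.7, 18.1, 19.2 and 4.74 TPM to 119, 108 and 196.5 TPM (3.25 ± 0.51, adjusted p = 0.000489). NRP1, a co-receptor for semaphorins and VEGF, rose from 7.74 to 25.2 TPM to 87.6, 58.2 and 146 TPM. Among receptor kinases, EGFR was 15.2, 7.92 and 11.6 TPM beside 2.24 to 3.08 TPM in WT, and PDGFRB 5.86, 3.95 and 11.4 TPM beside 1.43 to 2.22 TPM. Both were called with and without library 3. AXL, another kinase of this state, was 255.5, 94.0 and 96.7 TPM beside 33.8 to 144 TPM and did not pass the test.

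TGFB2 and INHBA belong both here and to the TGF-beta list, in which 7 of 22 genes were called higher and 1 lower (background 4.49 and 3.11%). Without library 3, 5 were called higher and 0 lower (background 2.47 and 0.659%), and TGFBR2, ID1 and ID4 lost their calls. TGFBR2, a TGF-beta receptor, was 61.2, 46.3 and 80.8 TPM beside 25.3 to 32.9 TPM, and SKIL, a target and inhibitor of the pathway, was 21.5, 17.6 and 29.8 TPM beside 8.32 to 10.5 TPM. LTBP2 and ID1 were also called higher. ID4, an inhibitor of differentiation that is listed with the BMP targets, was called lower, with 0.236 TPM in library 3. Of the undifferentiated state list, FST, which binds activin, was 38.6 and 34.5 TPM in libraries 1 and 2 and 1.15 TPM in library 3, beside 13.6 to 75.5 TPM in WT, and did not pass.

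Among 23 tested AP-1 and TEAD genes, 5 were called higher (JUN, FOSL2, CCN1, AJUBA and CRIM1) and 1 lower (FOS), beside 4.49 and 3.11% of all tested genes. Without library 3, FOSL2 and AJUBA were called higher and 0 genes lower (background 2.47 and 0.659%). FOSL2, an AP-1 subunit, rose from 6.83 to 8.20 TPM in WT to 47.1, 39.1 and 64.5 TPM (limma difference 2.57, adjusted p = 0.00049). FOS, another subunit, was 4.94, 6.26 and 0.999 TPM beside 6.66 to 10.6 TPM. Of the 4 TEAD genes and YAP1 and WWTR1, their co-activators, none was called. Of 9 tested EMT factors and cadherins 0 were called by limma, with or without library 3, and 2 had an unadjusted p under 0.05. Of all 16997 tested genes, 6206 had such a p with library 3 and 3862 without it. ZEB2, a repressor of epithelial genes, had a log2 difference of -0.94 (adjusted p = 0.018), under the minimum for a call. Neither CDH1 nor TWIST2 reached the expression minimum.

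Matrix genes moved both ways: 10 of 33 tested genes were called higher and 4 lower (background 4.49 and 3.11%), with a median of 0.22. Without library 3, 7 were called higher and 1 lower (background 2.47 and 0.659%). COL6A1 and COL6A2, chains of collagen VI, rose together. COL6A1 had 61.5 to 99.6 TPM in WT and 197, 534 and 525 TPM in the clone, and COL6A2 had 76.5 to 108 TPM in WT and 319, 733 and 808 TPM. COL4A1 and COL4A2, the basement membrane collagen IV chains whose genes lie head to head, were both called lower, but not without library 3 (log2 differences of -1.53 and -1.28, and -0.82 and -0.74 without it). COL4A1 had 111 to 129 TPM in WT and 67.6, 67.1 and 14.5 TPM in the clone, and COL4A2 had 345 to 416 TPM and 208.5, 241 and 71.8 TPM. FN1, fibronectin, had 798 to 1730 TPM in WT and 2242, 3222 and 2912 TPM in the clone, and its call did not hold without library 3 (adjusted p = 0.0223 and 0.0979). Library 3 held 253 TPM of COL15A1, above the 92.8 TPM of the highest other WM115 library, and 10.7 TPM of the laminin chain LAMA4, below the lowest at 72.0 TPM.

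**Figure D4:**
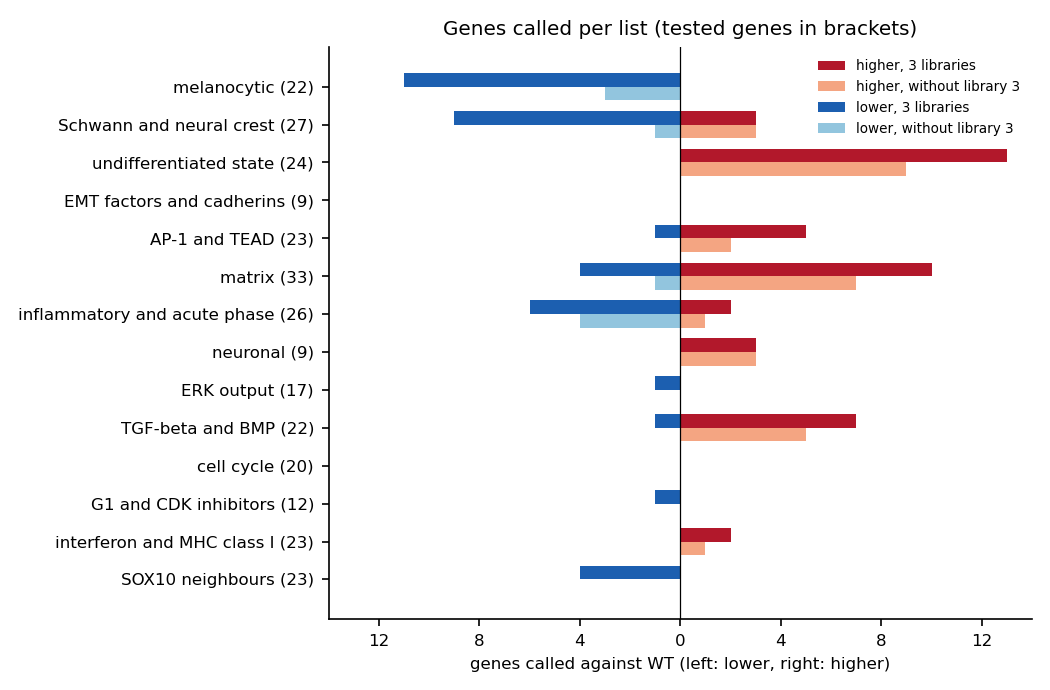
Bars give the number of genes called higher (right) or lower (left) in clone 1.2 than in WT for each list, with the number of tested genes in brackets, for the fit with 3 libraries and for the fit without library 3. The 11 melanocytic and 9 Schwann and crest genes called lower drop to 3 and 1 without library 3, and the 13 undifferentiated state genes called higher become 9. Over all tested genes, lower calls go from 529 to 112 and higher calls from 764 to 419 without library 3.

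Among 26 tested inflammatory and acute-phase genes, 6 were called lower (SAA1, SAA2, LCN2, CXCL1, CCL2 and IL24) and 2 higher (IL6 and IL32), with a median of -0.36 (background 3.11% lower and 4.49% higher). Without library 3, 4 were called lower and 1 higher (background 0.659 and 2.47%), and CXCL1, IL24 and IL32 lost their calls. SAA1, serum amyloid A, had 737, 539, 246 and 53.6 TPM in WT and 22.6, 2.80 and 0.681 TPM in the clone (limma difference -5.67, adjusted p = 0.00035; 0.00445 without library 3). SAA1 and SAA2 are near-identical, so reads may have been split between them and each value is uncertain. LCN2, lipocalin 2, had 39.1 to 404 TPM in WT and 70.1, 1.74 and 0 TPM in the clone, with library 1 inside the WT range. In the libraries of the other clones it ran from 0.748 to 2022 TPM. CCL2, a chemokine for monocytes, had 7.66 to 46.0 TPM in WT and 3.80, 0.294 and 0.454 TPM in the clone. The complement genes of the list did not pass: C3 was 27.2, 31.6 and 170 TPM beside 4.99 to 57.4 TPM in WT, and CFB 2.20, 2.90 and 7.91 TPM beside 1.42 to 4.001 TPM. NFKBIA and TNFAIP3, inhibitors induced by NF-kappaB, did not pass either.

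The interferon and MHC class I list had 2 of 23 tested genes called higher, IRF1 and IFIT1, beside a background of 4.49%. IFIT1 was not called without library 3 (limma adjusted p = 0.168). IRF1, a transcription factor of the interferon response, was 42.9, 19.5 and 53.1 TPM beside 9.71 to 12.3 TPM in WT (limma difference 1.61, adjusted p = 0.00149). Library 3 was above all other 20 WM115 libraries in 10 of the 23, beside 17.7% of all tested genes, and below all of them in 0. B2M, the MHC class I light chain, had 5735 TPM there and at most 3225 TPM elsewhere, and NLRC5, an activator of the class I genes, had 28.5 TPM there and at most 12.7 TPM elsewhere.

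Cell division genes gave no calls between the groups, while library 3 was low. Of 20 cell-cycle genes, limma called 0 with or without library 3, and 1 had an unadjusted p under 0.05 with it and 0 without it. Of all 16997 tested genes, 6206 had such a p with library 3 and 3862 without it. Library 3 was lower than the mean of libraries 1 and 2 by a log2 of at least 1 in 14 of the 20 (7.34% of all tested genes). It was below all other 20 WM115 libraries in 16 (18.7% of all tested genes). MKI67, the Ki-67 proliferation antigen, had 28.3 to 57.6 TPM in WT, 54.2 and 24.6 TPM in libraries 1 and 2 and 10.7 TPM in library 3. E2F1, a transcription factor of S-phase entry, was 11.8 TPM in library 3, beside 29.05 to 63.2 TPM in the other 20 libraries. CCND1, cyclin D1, was the only G1 gene of 12 tested that was called, with 821.5 to 1274 TPM in WT and 683, 688 and 242 TPM in the clone (limma difference -1.02, adjusted p = 0.0179), and it was not called under median-of-ratios scaling or without library 3 (-0.52, adjusted p = 0.161). The CDK inhibitor CDKN1A was 252, 242 and 162 TPM beside 297 to 329.5 TPM, under the minimum difference. CCND1 was also the 1 ERK output gene of 17 called, beside 3.11% of all tested genes called lower. DUSP6 and SPRY2, feedback inhibitors of ERK signalling, were 101 and 103 TPM in library 3, beside 151 to 214 and 109 to 131 TPM in WT, and did not pass.

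Among called genes whose clone and WT libraries did not overlap, those highest in clone 1.2 over WT were BEX1, VIPR1, GREM1, MGST1, IL6, EEF1A2, PCSK1N, G0S2, CLEC11A and CLU. BEX1 (chromosome X, 103062651 to 103064240, minus strand), a small adaptor protein of neural cells, had at most 0.15 TPM in WT and 262, 106 and 542 TPM in the clone (limma difference 7.83 ± 0.97, adjusted p = 8.61e-05). VIPR1 (chromosome 3, 42489299 to 42537573, plus strand), a receptor for vasoactive intestinal peptide, had 0.128 to 0.674 TPM in WT and 95.7, 63.8 and 399.8 TPM in the clone. MGST1, a membrane glutathione transferase, had 3.70 to 8.25 TPM in WT and 268, 194 and 516 TPM in the clone. GREM1, a secreted BMP antagonist, had 0.268 to 3.31 TPM and 288, 19.0 and 151 TPM. G0S2, an inhibitor of fat breakdown, was the steadiest of the 10 over the clone's libraries, with 246.5, 212 and 248 TPM beside 3.83 to 8.25 TPM in WT. EEF1A2 was 83.8, 282 and 163 TPM beside 1.77 to 4.47 TPM. All 10 were called higher without library 3 too, with adjusted p from 0.000497 to 0.00883.

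Of the 16 genes of the neuronal list, 9 were tested, and the others did not reach the expression minimum. Of the 9, 3 were called, all higher with and without library 3 (background 4.49 and 2.47% higher). INA, a neurofilament protein, had 0.053 to 0.462 TPM in WT and 14.4, 18.1 and 29.2 TPM in the clone. SNAP25, a synaptic vesicle fusion protein, had 0.468 to 1.18 TPM and 11.7, 10.6 and 22.5 TPM. L1CAM, a neural adhesion protein, had 46.1 to 63.6 TPM and 259, 357 and 599 TPM. The neurofilaments NEFL and NEFM did not pass, and STMN2 was listed at 0 in all 7 libraries.

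Among called genes whose clone and WT libraries did not overlap, those lowest in clone 1.2 were DCT, SAA1, SAA2, HLA-DQA1, LHFPL3-AS1, HLA-DQA2, MLANA, HLA-DQB1, LINC00520 and AL353751.1. HLA-DQA1 (chromosome 6, 32628179 to 32647062, plus strand), an MHC class II chain, had 448 to 735 TPM in WT and 91.1, 290.4 and 0.283 TPM in the clone (limma difference -4.18, adjusted p = 0.0103; -1.85 and 0.00422 without library 3). The invariant chain CD74, which escorts class II molecules, and CIITA, the activator of the class II genes, fell too; these and the next genes were chosen after their values were seen. CIITA had 46.0 to 70.8 TPM in WT and 15.7, 33.2 and 4.26 TPM in the clone (limma difference -1.94, adjusted p = 0.00353), and -1.21 without library 3 (adjusted p = 0.0177). CD74 had 5134 to 6764 TPM in WT and 2166, 3217 and 541 TPM in the clone. HLA-DRA, HLA-DRB1, HLA-DPA1, HLA-DPB1, HLA-DMA, HLA-DMB and HLA-DOA were called lower as well, with log2 differences from -1.30 to -2.79. Without library 3, HLA-DMA, HLA-DMB and HLA-DOA were not called. HLA-DQA1 and HLA-DQA2, like HLA-DQB1 and HLA-DQB2, are close copies, so their split is uncertain. AL353751.1 and VAMP8, a vesicle fusion protein, were lower in every clone 1.2 library, and they were also low in all 14 libraries of the other clones. AL353751.1 had 9.73 to 20.3 TPM in WT, 0.120 to 0.613 TPM in clone 1.2 and at most 0.554 TPM in the other clones. VAMP8 had 9.56 to 14.7 TPM in WT, 0.590 to 1.07 TPM in clone 1.2 and 0.201 to 3.91 TPM in the other clones.

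Compared with the other 4 clones, clone 1.2 had 1104 genes called (6.5%), 722 higher (4.25%) and 382 lower (2.25%), or 808 and 406 without the second library of clone 1.3. Without library 3 there were 398 higher and 73 lower. In both comparisons 658 genes were called in the same direction and 1 in opposite directions; the comparisons share the clone 1.2 libraries. BEX1 (6.88 ± 0.81), GREM1 (4.81 ± 0.72) and MGST1 (4.73 ± 0.65) were the highest, and SAA1 (-3.50 ± 0.72), SAA2 (-3.36 ± 0.62) and LCN2 (-3.33 ± 0.87) the lowest. Only 1 melanocytic gene was called lower in this comparison, IRF4, while 15 of 27 Schwann and crest genes were, SOX10 among them. Without library 3, 0 melanocytic and 2 Schwann and crest genes were called lower by limma.

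What the SOX10-low library 3 expressed was then described on its own, with no test because it is 1 library. By a log2 of at least 1, it was above every other WM115 library in 114 genes (0.671% of those tested) and below every one in 413 (2.43%). Against the mean of libraries 1 and 2, 463 genes were higher by that much (2.72%) and 1248 lower (7.34%). Of 7070 tested genes with 10 TPM or more in each of the other 20 libraries, 27 were under 1 TPM in library 3. They included EDNRB, CDH19, RXRG, IRF4, NRCAM, PTPRZ1, CITED1, LEF1, POU3F2, SORCS1, ITIH5 and 3 HLA-DQ genes. POU3F2, a neural crest and neuronal transcription factor also called BRN2, had 0.121 TPM in library 3 and 14.6 to 40.4 TPM in the other 20. PTPRZ1, a receptor phosphatase of glial precursors, was listed at 0 there and had 11 to 147 TPM elsewhere. ITIH5, which binds hyaluronan, was likewise listed at 0 and had 28.8 to 268 TPM elsewhere.

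Farthest below the range of the other 20 libraries came HLA-DQB1, HLA-DQA1, GAS7, NFATC2, HLA-DQB2, S100B, EDNRB, ITIH5, HLA-DOA, HLA-DQA2, SOX10, TNFRSF19, FXYD3, CDH19 and EGR3. NFATC2, a calcium-regulated transcription factor, had 2.29 TPM in library 3, 170.0 and 181 TPM in libraries 1 and 2, and 138 TPM or more in all of the other 20. GAS7 had 1.79 TPM beside 135 to 390.1 TPM, and FXYD3, an ion pump regulator, 19.4 TPM beside 414 to 1243 TPM. EGR3, an early response transcription factor, had 0.364 TPM beside 25.6 to 78.9 TPM.

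Farthest above that range came C4A, CHI3L1, C4B, CCN4, CLCA2, OLFML2B, CRH, VIPR1-AS1, VIPR1, TNFRSF11B, SLC26A10, SPOCK1, GPX3, CFI and H1-2. Many were already raised in libraries 1 and 2. TNFRSF11B, the osteoprotegerin decoy receptor, was 44.3, 32.9 and 185 TPM in libraries 1 to 3 and at most 2.24 TPM in WT, and SPOCK1, a testican proteoglycan, 62.7, 49.7 and 249 TPM beside at most 7.78 TPM. CHI3L1, a secreted chitinase-like glycoprotein, was 3.40, 2.25 and 25.7 TPM, and at most 0.117 TPM in WT. CFI, a complement protease, was 4.30, 5.64 and 42.7 TPM in libraries 1 to 3, and C4A, a form of complement component C4, 0.742, 1.82 and 20.5 TPM. C3 and CFB were not outside the range of the other 20 libraries, which reached 362.5 and 9.67 TPM. C4A and C4B are near-identical, so the split between them is uncertain. Only CCN4 and C4A went from under 2 TPM in all other 20 libraries to 10 TPM or more.

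The 10 most abundant genes of library 3 were MT-CO2, MT-CO1, MT-CO3, MT-ATP6, MT-ND4L, MT-CYB, FTL, MT-ND4, EEF1A1 and RPL41. FTL, the ferritin light chain, had 9691 TPM in library 3, 5572 and 5880 TPM in libraries 1 and 2 and 2100 to 4124 TPM in WT. It was called higher (limma difference 1.11, adjusted p = 0.00831) but not without library 3 (0.86, adjusted p = 0.0788).

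Markers of other cell types were under 1 TPM in library 3 for 5 of 7 leukocyte, 5 of 7 keratinocyte, 3 of 5 endothelial and 2 of 9 fibroblast genes. The part of the others in its pattern was not tested. Leukocyte markers PTPRC, CD3E and MS4A1 were listed at 0 there, as were the keratinocyte genes KRT5, KRT1 and KRT14, and the summed level of the 7 leukocyte markers (758 TPM; 336 to 448 TPM in WT) came almost wholly from CD68, at 757 TPM. CD14, at 1.187 TPM, was highest there of the 21 libraries. Of 9 fibroblast markers, 3 (COL1A1, PDGFRB and THY1) were called higher and 1 (LUM) lower (background 4.49 and 3.11%). DCN was 0.191 TPM and COL3A1 0 in library 3. The 9 markers summed to 707 TPM in library 3, beside 491 to 723 TPM in WT. The 5 endothelial markers summed to 16.4 TPM in library 3 and 2.48 to 5.93 TPM in WT, through PECAM1 at 12.01 TPM and CDH5 at 4.04 TPM, each the highest of the 21 libraries, while TEK and VWF were 0.020 and 0.282 TPM and KDR 0. The 7 keratinocyte markers summed to 62.6 TPM in library 3 and 40.5 to 56.5 TPM in WT, mostly KRT10. TP63, listed with the keratinocyte genes, was called higher at 0.825, 1.82 and 7.65 TPM and at most 0.216 TPM in WT.

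On chromosome 22, where SOX10 lies, the median level was the lowest of the nuclear chromosomes. The median difference from WT of its 400 tested genes was -0.45, beside -0.02 over all genes, and -0.26, -0.31 and -0.76 in libraries 1, 2 and 3. Chromosome 13 (-0.31) and chromosome 16 (-0.23) came next, and chromosome 3 had the highest median (0.18). In library 2 chromosome 13, at -0.47, was below chromosome 22. Against the other 4 clones the chromosome 22 median was -0.37. In library 3, 80.8% of the genes of chromosome 22 were below their WT mean, and 75.8% in the mean of libraries 1 and 2. For chromosome 13 these shares were 71.1 and 78.2%. Copy number was not analysed here.

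Among 23 tested genes of the stretch around SOX10, 4 were called lower (BAIAP2L2, PLA2G6, MAFF and PDXP) and 0 higher (background 3.11 and 4.49%). The 23 had a median difference of -0.55, beside -0.45 over the tested genes of chromosome 22. Without library 3 limma called 0 of them, and 12 had an unadjusted p under 0.05, beside 3862 of all 16997 tested genes. All 3 clone libraries were below the WT range in 14 of the 23, beside 13.2% of all genes. PLA2G6, a phospholipase, had 257 to 377 TPM in WT and 88.0, 93.8 and 9.46 TPM in the clone (limma difference -2.87, adjusted p = 0.0119), and the other 20 libraries ran from 15.9 to 674 TPM. MAFF, a small MAF transcription factor, had 105 to 249 TPM in WT and 94.3, 95.1 and 12.95 TPM in the clone. POLR2F, an RNA polymerase subunit whose gene lies beside SOX10, was 144, 122 and 71.4 TPM beside 149 to 168.5 TPM and stayed under the minimum difference. LGALS1, galectin 1, was higher in all 3 clone libraries (1391 to 1442 TPM) than in WT (506 to 1220 TPM) but did not pass the test.

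**Figure D5:**
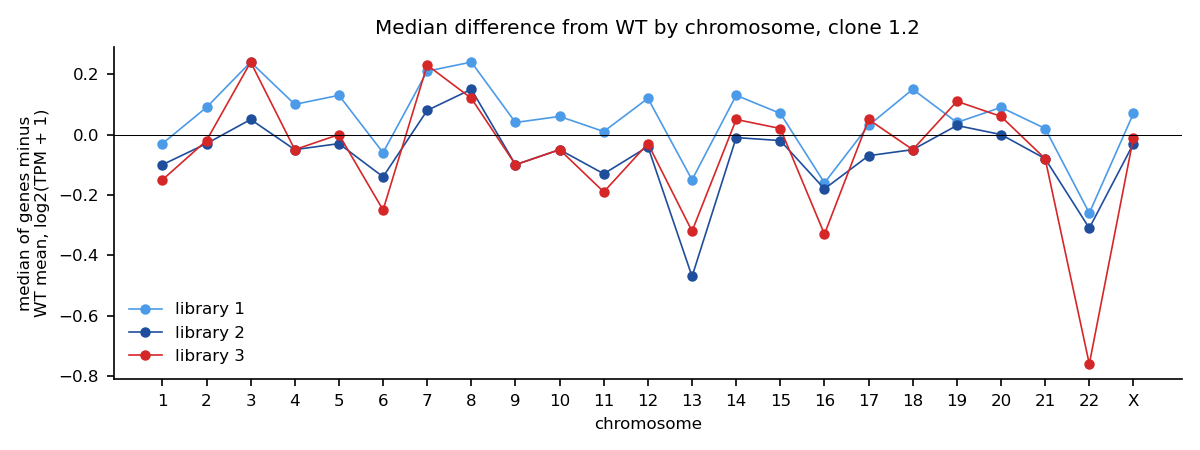
The y axis is the median, over the tested genes of each chromosome on the x axis, of the level minus the WT mean on the log2(TPM + 1) scale; each line is 1 library of clone 1.2. Chromosome 22 is the lowest in library 3, at -0.76, and lies below 0 in all 3 libraries.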

How the data were processed

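Gene and transcript levels were deposited by the authors as TPM. Alignment and quantification used DRAGEN with GRCh38, per the submitters' processing notes; versions and the annotation are not given in the sources used here. Polyadenylated RNA was captured and cDNA primed with random hexamers, per the labels' protocols. The gene and the transcript table each held 6 value columns that match no sample and were not used. Repeated lines (200 in the gene table) were dropped by Ensembl identifier. From log2(TPM + 1), limma 3.58.1 (R 4.3.3) was fitted to all 21 WM115 libraries in 6 groups, with a variance trend, for genes with at least 1 TPM in at least 3 libraries. Fitting all groups shares 1 estimate of the spread. The fit was tested on simulated data. TPM keeps no depth, which is unknown. Positions come from GENCODE 29 by Ensembl identifier. Genes named are those with the largest differences among called genes whose groups do not overlap, those farthest from WT in all 3 libraries, those farthest outside the other 20 libraries in library 3, its most abundant genes, and list members. Some list members count in the totals but are not reported by name here. The members, lists and rules were chosen with earlier results of these data known. Alternatives are in the closing section.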

Additional observations from a re-analysis of the deposited data

Results flagged for a closer look

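In 9 of 132 genes examined, 1 of the 4 WT libraries stood apart from the other 3: its gap to the nearest library, as a share of the range, was above Dixon's critical value for 4 samples. The shares were 0.954 for WNT5A, 0.953 for RXRG, 0.950 for CCN4, 0.945 for RPL41, 0.936 for NUAK1, 0.844 for TNFRSF11B, 0.843 for MAFF, 0.836 for GREM1 and 0.830 for GPNMB. Chance flags about 1 in 20 such groups. WT library 3 was the one apart for GPNMB, GREM1, MAFF, NUAK1, RPL41 and RXRG, WT library 4 for TNFRSF11B and WNT5A, and WT library 2 for CCN4.

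Clone 1.2 differed from the other 4 clones by the same limma fit in SOX10 (-2.15, adjusted p = 0.0116), BEX1 (6.88, adjusted p = 3.55e-05), GREM1 (4.81, adjusted p = 0.000198), MGST1 (4.73, adjusted p = 0.000101), SAA1 (-3.50, adjusted p = 0.00205), SAA2 (-3.36, adjusted p = 0.000929) and LCN2 (-3.33, adjusted p = 0.00949), all as log2(TPM + 1) differences.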

How the results depend on the processing

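The number of genes called against WT, 1293, became 715 with a mean of at least 5 TPM (44.9% of them higher, beside 59.1%), 770 with only the clone 1.2 and WT libraries in the fit, and 3839 with no minimum difference. Leaving out 1 library of clone 1.2 or WT at a time gave 531 to 1683 calls, the lowest without library 3 of the clone. Leaving out that library and the second library of clone 1.3, chosen after seeing the data, gave 688. Against the other 4 clones, 1104 calls became 1747 with a pseudocount of 0.1, 633 with the stricter filter and 614 without both of those libraries, and 471 to 1591 with 1 clone 1.2 library left out. The share of higher calls there was 65.4%, and 49% with the stricter filter (310 higher and 323 lower) and 53.5% after quantile normalization.

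SOX10 was -2.44 with an adjusted p of 0.164 when only the clone 1.2 and WT libraries were fitted, and -0.87 without library 3, also when the second library of clone 1.3 was left out as well. Leaving out 1 library at a time gave -3.24 to -0.87. Of 121 further genes followed, 113 were called in the main fit. SOX10 and these 113 kept their direction in every setting in which they were tested. Of the 113, 51 lost their call without library 3 and 53 in the fit of the 2 groups. The balance of calls against WT did change sides with the stricter filter, to 321 higher and 394 lower. Several of these settings also leave fewer libraries or genes in the fit. The cause of these changes was not tested.

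No pairing of the libraries by replicate number was seen. Same-numbered libraries of clone 1.2 and WT had deviations correlated at -0.122, 0.053 and -0.049, and no library correlated best with its own number. Library 3 stood apart in clone 1.2, so this check could miss a pairing. With the replicate number as a block, over replicates 1 to 3 of both groups, 82 genes were called and SOX10 was -2.50 (adjusted p = 0.237). Depth is unknown, so no counting error could be given for low values.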
